A study of Mus musculus with 12 samples.

Results

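Transcripts of 9 genes of the interleukin-1 (IL-1) family and its receptors were followed in a mouse microglial cell line, in wild-type cells and in cells labelled as a knockout of the kinase MOK. The members were taken by gene symbol: the agonists Il1a, Il1b, Il18 and Il33, the receptor antagonist Il1rn, the IL-18 binding protein Il18bp, the signalling receptor Il1r1, its coreceptor Il1rap and the decoy receptor Il1r2. They are 9 of the 55416 gene identifiers in the deposited table of read counts, and 8 of the 9 passed the filter on low counts. The 4 groups were H14 cells, labelled as a MOK knockout (KO), with lipopolysaccharide (LPS, bacterial endotoxin), wild-type (WT) cells with LPS, KO cells in medium alone and WT cells in medium alone. LPS was given at 1 µg/mL for 5 h. All cells were SIM-A9, a spontaneously immortalised microglial line of C57BL/6 origin per the labels, grown in culture in serum-containing medium. Each group had 3 libraries, which the labels call biological replicates without saying how the cultures were separated, so each p-value measures spread between libraries that may be technical. H14 is 1 line, so effects of losing MOK and of other changes in that line cannot be told apart.

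IL-1α and IL-1β bind the same receptor, IL1R1, which then recruits the coreceptor IL1RAP and signals through MyD88 and IRAK kinases to NF-kB. IL-1Ra, the product of Il1rn, occupies IL1R1 without recruiting the coreceptor, and IL1R2 binds the agonists but lacks a signalling domain. IL-1β and IL-18 are made as precursors that caspase-1 cleaves after inflammasome assembly, IL-18BP neutralises IL-18, and microglia are a main source of IL-1β in the inflamed brain.

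Il1a, Il1b and Il1rn lie on mouse chromosome 2, where Il1a and Il1b are neighbours and Il1rn sits apart from them, between Psd4 and a row of IL-36 genes. The windows from 250 bases before to 50 after the annotated start of these genes (RefSeq, GRCm38.p6) are shown because these 3 genes differed most between the lines. The Il1a window is chr2:129309923-129310222 (minus strand), that of Il1b chr2:129371090-129371389 (minus strand), and the first of 3 for Il1rn chr2:24336610-24336909 (plus strand). All are written 5′ to 3′ on the gene's strand, with capitals for matches to NF-kB, PU.1 or TATA motifs.
Il1a: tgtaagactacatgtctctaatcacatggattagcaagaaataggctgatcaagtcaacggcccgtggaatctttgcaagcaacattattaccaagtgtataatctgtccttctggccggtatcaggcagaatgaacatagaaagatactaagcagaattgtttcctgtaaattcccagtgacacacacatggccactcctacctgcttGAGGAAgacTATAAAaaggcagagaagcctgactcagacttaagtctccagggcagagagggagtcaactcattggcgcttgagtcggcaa
Il1b: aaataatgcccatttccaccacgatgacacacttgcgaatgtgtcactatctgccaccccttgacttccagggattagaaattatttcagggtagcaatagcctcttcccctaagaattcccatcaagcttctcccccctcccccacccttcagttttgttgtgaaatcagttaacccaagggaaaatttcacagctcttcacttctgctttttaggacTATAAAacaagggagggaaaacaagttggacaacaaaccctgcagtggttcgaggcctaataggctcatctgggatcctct
Il1rn: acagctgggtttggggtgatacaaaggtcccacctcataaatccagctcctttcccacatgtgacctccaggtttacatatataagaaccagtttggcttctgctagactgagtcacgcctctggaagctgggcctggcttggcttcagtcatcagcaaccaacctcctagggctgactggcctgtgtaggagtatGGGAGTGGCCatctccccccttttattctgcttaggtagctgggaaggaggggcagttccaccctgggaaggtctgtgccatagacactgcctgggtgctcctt
The motifs searched on both strands were GGGA, any 4 bases and CC for NF-kB, GAGGAA for PU.1 (the product of Spi1), TATAAA for the TATA box, TGANTCA for AP-1, TTGCNNAA for C/EBP and a pair of GAAA with any 2 bases between them for ISRE. The Il1a window held GAGGAA at position -41, TATAAA at -32 and TGANTCA at -12, counted from the start site. The Il1b window held TATAAA at -31 and no match to the other 5 motifs. The first Il1rn window held the NF-kB motif at -54 and TGANTCA at -141 and no TATAAA. The other 2 Il1rn windows, which overlap each other, held no match to NF-kB or PU.1. Of 32817 RefSeq windows of this length, 20.7% held the NF-kB motif, 28.3% the PU.1 motif, 13.6% TATAAA, 7.81% the AP-1 motif, 10.8% the C/EBP motif and 3.43% the ISRE motif. These matches describe the letters of the windows and were not tested for binding.

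The 12 libraries held 39.7 to 72.9 M counts. Mok, the targeted gene, had 78, 84 and 56 counts in KO cells under LPS and 164, 87 and 158 in WT cells under LPS, and 115, 117 and 95 in KO medium libraries and 158, 163 and 206 in WT medium libraries. The difference between the lines was -0.72 ± 0.19 (log2, SE) under LPS (edgeR quasi-likelihood test, adjusted p = 0.0177) and -0.58 ± 0.19 in medium (adjusted p = 0.0501). The medium difference passed in 7 alternatives, DESeq2 among them (adjusted p = 0.00568). The LPS call did not hold with KO LPS replicate 3 left out, nor with replicate 1 or 3 of the WT LPS libraries left out, at adjusted p of 0.0753, 0.0785 and 0.0515 in that order. The count sums over the whole gene and does not show where Mok was edited, so it checks the knockout label only in part. All 12 microglia and macrophage markers had counts in each library. Their summed level, as CPM (counts scaled to a library of 1 M by the TMM factors), was 942 to 1328 CPM in KO and 1329 to 1556 CPM in WT cells under LPS, and 770 to 1151 CPM in KO and 1100 to 1316 CPM in WT cells in medium. In KO against WT cells 3 of the 12 were lower and 0 higher under LPS, where 12.7% of all genes were lower and 7.87% higher. In medium 2 were lower and 1 higher, where 12.3% of all genes were lower and 6.88% higher, so the medium counts stand near those shares. The marker that was higher in medium was Tmem119 (log2 0.63 ± 0.20, edgeR adjusted p = 0.0464). That call lay close to the threshold and was not run through the alternatives. Under LPS the Tmem119 difference was -0.27 ± 0.22 and did not pass (edgeR adjusted p = 0.486). Itgam, which encodes CD11b, was 8.22-fold lower in KO than in WT cells under LPS (log2 -3.04 ± 0.16, adjusted p = 2.40e-07) and 5.70-fold lower in medium (-2.51 ± 0.16, adjusted p = 1.22e-06). Csf1r was lower under LPS (-0.55 ± 0.11, adjusted p = 0.00359) and in medium (-0.70 ± 0.11, adjusted p = 0.000937), and Adgre1 under LPS (-0.87 ± 0.21, adjusted p = 0.0113). Summed markers of astrocytes, neurons, oligodendrocytes, fibroblasts and lymphocytes reached at most 27.1 CPM, and the 5 endothelial markers summed to 90.9 to 130.1 CPM. In each group only 1 of those 5 reached a mean of 1 CPM, so the endothelial sum was mostly that of 1 gene. The oligodendrocyte sum was 13.8 to 16.8 CPM in KO and 7.95 to 8.38 CPM in WT cells under LPS, and 26.6 to 27.1 CPM in KO and 10.95 to 15.9 CPM in WT cells in medium, and its gene Mbp was higher in KO than in WT cells by 1.15 ± 0.14 under LPS and 1.22 ± 0.14 in medium (log2, adjusted p = 0.000138 and 0.000113). The lymphocyte sum was 13.7 to 22.2 CPM in KO and 9.18 to 10.6 CPM in WT cells under LPS, and 1.76 to 6.03 CPM in KO and 2.10 to 10.0025 CPM in WT cells in medium. Here too only 1 of the 6 markers reached a mean of 1 CPM in each group. Processed pseudogenes took 7.08% to 7.80% of the counts in KO and 6.72% to 7.53% in WT cells under LPS, and 13.4% to 14.96% in KO and 7.03% to 13.8% in WT cells in medium. In bulk RNA, fewer expressing cells and less RNA per cell cannot be told apart, which holds for all values below. The part of the marker and pseudogene differences in the results was not tested, except that the pseudogene share was added to the model as an alternative. In KO cells this share did not overlap between LPS and medium libraries, so that model can hardly separate it from LPS. LPS calls in KO cells that were lost under that model therefore cannot tell the share and LPS apart.

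LPS raised Il1a, Il1b, Il1rn, Il18 and Il1rap and lowered Il1r2 in both lines, while Il1a, Il1b, Il1rn and Il1r1 were lower in KO than in WT cells with and without LPS. In KO cells, 5 of the 8 tested members rose with LPS and 1 fell, where 25.3% of the 26420 tested genes rose and 26.8% fell. In WT cells the counts were again 5 higher and 1 lower, where 16.3% of all genes rose and 16.3% fell. In KO against WT cells, 4 members were lower and 0 higher under LPS, where 12.7% of all genes were lower and 7.87% higher. In medium 4 members were lower and 0 higher, where 12.3% of all genes were lower and 6.88% higher. The median log2 fold change of the 8 members was 1.35 for LPS in KO cells and 1.68 in WT cells, against medians of -0.04 and -0.07 over all genes. For KO against WT cells it was -0.49 under LPS and -1.003 in medium, against 0.07 and 0.04 over all genes. Calls rest on edgeR's quasi-likelihood test at an adjusted p under 0.05 (Benjamini-Hochberg over all tested genes).

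**Figure D1:**
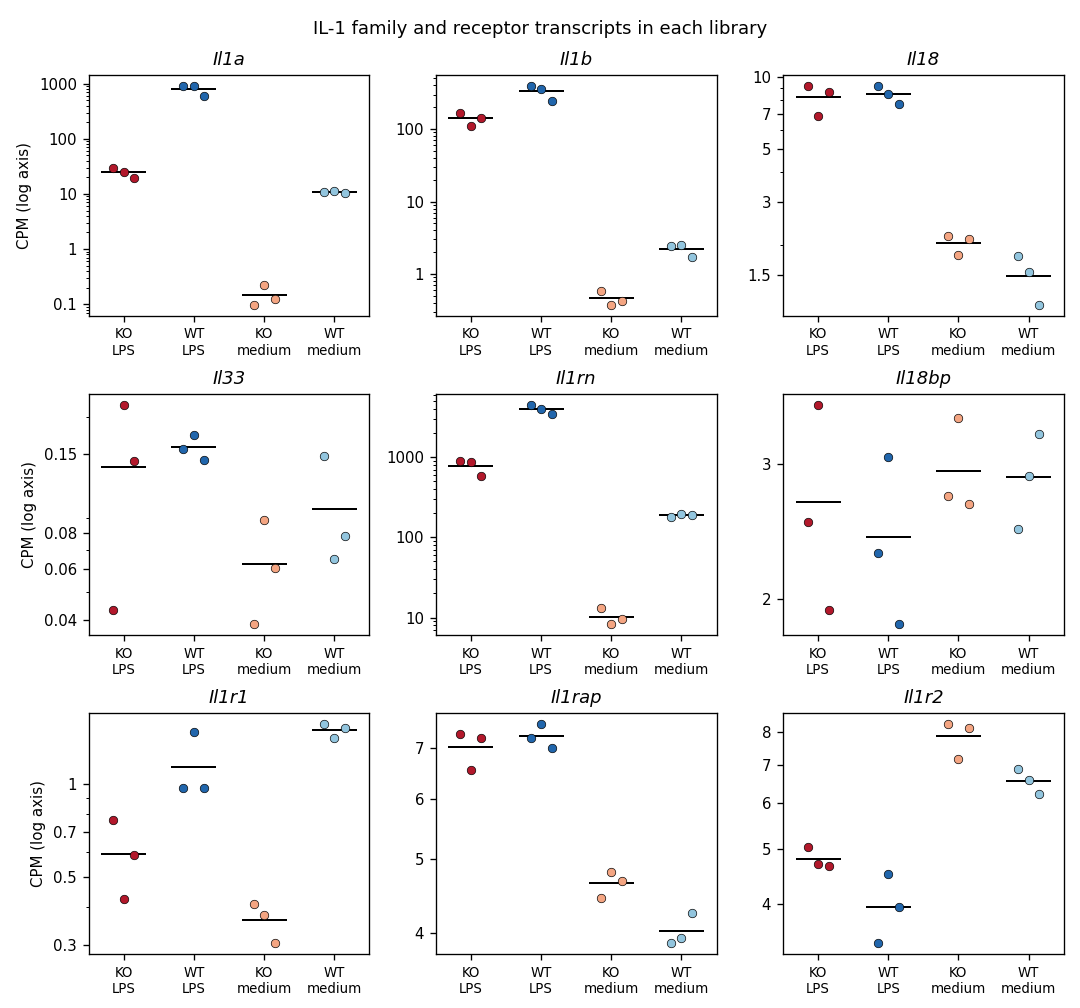
Level of each of the 9 members in the 12 libraries, in CPM on a log axis whose range differs between panels. Points are libraries (n = 3 per group) and lines are group means. Il1a, Il1b and Il1rn are low in KO medium libraries and high under LPS, with KO below WT at each condition, while Il18bp overlaps across the 4 groups.

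Il1a encodes IL-1α, which is active as a precursor and acts as an alarm signal when cells are damaged. KO cells had 29.2, 25.4 and 19.5 CPM of Il1a under LPS and 0.0972, 0.221 and 0.122 CPM in medium. WT cells had 895, 917 and 598 CPM under LPS and 10.8, 11.2 and 10.5 CPM in medium. The 4 groups did not overlap, and the KO libraries under LPS lay above the WT libraries in medium. LPS raised Il1a by 7.40 ± 0.29 in KO cells on the log2 scale (adjusted p = 1.64e-08), a 168-fold difference, and by 6.21 ± 0.23 in WT cells (adjusted p = 1.14e-08), a 74.2-fold difference. Il1a was lower in KO than in WT cells by a log2 difference of -5.02 ± 0.22 under LPS (32.5-fold, adjusted p = 5.83e-08) and -6.21 ± 0.29 in medium (73.9-fold, adjusted p = 1.70e-07). The KO medium values rest on 5, 10 and 6 counts. Gm14023, a gene on the other strand that overlaps 11.2% of the Il1a exon bases, had 17 to 25 counts in KO and 343 to 645 in WT cells under LPS, and 7 to 17 in KO and 27 to 51 in WT cells in medium. No source used here gives the strand setting of the counting, so reads of the pair may have been counted for either gene, and in KO medium libraries both counts are of the same size.

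Il1b encodes IL-1β, the secreted agonist that needs cleavage. KO cells had 167, 111 and 144 CPM of Il1b under LPS and 0.583, 0.376 and 0.426 CPM in medium. WT cells had 396, 355 and 245 CPM under LPS and 2.44, 2.53 and 1.74 CPM in medium. Again the 4 groups did not overlap, but the gap between the lines was narrower than for Il1a. LPS raised Il1b 301-fold in KO cells (log2 8.23 ± 0.30, adjusted p = 1.12e-08) and 149-fold in WT cells (7.22 ± 0.27, adjusted p = 1.51e-08). Il1b was 2.36-fold lower in KO than in WT cells under LPS (log2 -1.24 ± 0.20, adjusted p = 0.00117) and 4.77-fold lower in medium (-2.25 ± 0.29, adjusted p = 0.000259). The KO medium libraries held 30, 17 and 21 counts of Il1b. Il1bos, on the other strand over 1.31% of its exon bases, held 5 to 9 counts there.

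Il1rn encodes the receptor antagonist IL-1Ra. KO cells had 889, 871 and 586 CPM of Il1rn under LPS and 13.1, 8.28 and 9.49 CPM in medium. WT cells had 4492, 3951 and 3505 CPM under LPS and 178, 194 and 191 CPM in medium. Il1rn was thus among the members with a clear signal in unstimulated WT cells, and the 4 groups did not overlap. LPS raised it 75.9-fold in KO cells (log2 6.25 ± 0.24, adjusted p = 1.03e-08) and 21.2-fold in WT cells (4.41 ± 0.22, adjusted p = 7.33e-08). Il1rn was 5.09-fold lower in KO than in WT cells under LPS (log2 -2.35 ± 0.20, adjusted p = 6.89e-06) and 18.2-fold lower in medium (-4.19 ± 0.22, adjusted p = 2.87e-07).

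The LPS effect was compared between the lines with the interaction, which is the log2 LPS effect in KO cells minus that in WT cells. It was called for 1 of the 8 tested members, Il1rn, and was positive there, where 0.693% of all genes had a higher and 0.908% a lower LPS effect in KO cells. The Il1rn interaction was 1.84 ± 0.27 (adjusted p = 0.00719), so the fold difference between the lines was smaller under LPS than in medium. In CPM the lines lay further apart under LPS. Mean Il1rn was 782 CPM in KO and 3983 CPM in WT cells under LPS, and 10.3 and 188 CPM in medium. Il1a (1.18 ± 0.40, adjusted p = 0.202), Il1b (1.01 ± 0.35, adjusted p = 0.231) and Il1r1 (1.10 ± 0.38, adjusted p = 0.218) had positive values that did not pass. The interaction was -0.50 ± 0.27 for Il18 (adjusted p = 0.445), -0.25 ± 0.17 for Il1rap (0.532), 0.14 ± 0.37 for Il18bp (0.889) and 0.02 ± 0.19 for Il1r2 (0.973).

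**Figure D2:**
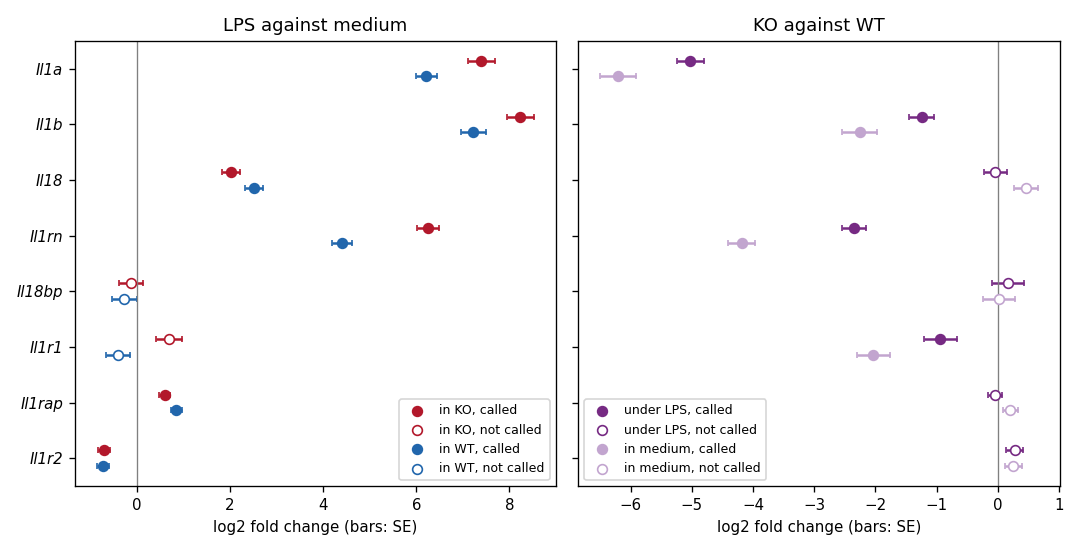
Log2 fold changes of the 8 tested members with the SE of the model as bars (12 libraries), for LPS against medium in each line on the left and for KO against WT in each condition on the right. Filled points passed an adjusted p of 0.05. Il1a, Il1b, Il1rn and Il1r1 lie left of 0 in both KO against WT comparisons, and the Il1rn points of the 2 lines lie apart in the LPS panel (6.25 in KO and 4.41 in WT).

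Il18 encodes IL-18, an agonist that is best known for driving interferon-γ production. KO cells had 9.15, 6.88 and 8.62 CPM of Il18 under LPS and 2.18, 1.81 and 2.11 CPM in medium. WT cells had 9.17, 8.50 and 7.68 CPM under LPS and 1.79, 1.54 and 1.12 CPM in medium. All LPS libraries lay above all medium libraries, and under LPS the lines overlapped. LPS raised Il18 4.04-fold in KO cells (log2 2.01 ± 0.20, adjusted p = 1.52e-05) and 5.71-fold in WT cells (2.51 ± 0.20, adjusted p = 2.98e-06). The KO against WT difference was -0.04 ± 0.19 under LPS (adjusted p = 0.933) and 0.46 ± 0.19 in medium (adjusted p = 0.118), and neither passed.

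Il18bp had 2.52, 3.58 and 1.93 CPM in KO and 2.30, 3.07 and 1.85 CPM in WT cells under LPS. In medium it had 2.72, 3.45 and 2.66 CPM in KO and 2.47, 2.90 and 3.29 CPM in WT cells. The 4 groups overlapped, and no comparison of Il18bp passed the test. The LPS difference was -0.13 ± 0.26 in KO (adjusted p = 0.698) and -0.27 ± 0.26 in WT cells (adjusted p = 0.451), and the KO against WT difference was 0.16 ± 0.26 under LPS (adjusted p = 0.776) and 0.03 ± 0.26 in medium (adjusted p = 0.949). Il18bp shares 2.64% of its exon bases with Numa1 on the other strand, which held 4827 to 9592 counts per library against 82 to 211 for Il18bp. Il33, the alarm cytokine read by the receptor ST2, did not pass the filter. It had 2, 12 and 6 counts in KO and 9, 7 and 9 in WT cells under LPS, and 2, 4 and 3 in KO and 7, 3 and 5 in WT cells in medium. A difference in Il33 was not detectable at this depth.

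Among the receptors, Il1r1 was the member that differed between the lines. KO cells had 0.761, 0.423 and 0.589 CPM of Il1r1 under LPS and 0.408, 0.376 and 0.304 CPM in medium. WT cells had 0.967, 1.47 and 0.966 CPM under LPS and 1.56, 1.41 and 1.51 CPM in medium. The KO libraries lay below the WT libraries in both conditions. Il1r1 was 4.09-fold lower in KO than in WT cells in medium (log2 -2.03 ± 0.27, adjusted p = 0.000321) and 1.91-fold lower under LPS (-0.94 ± 0.26, adjusted p = 0.0249). The call under LPS did not hold with KO LPS replicate 2 or 3 left out (-0.74 and -0.94, adjusted p = 0.0926 and 0.0731) or with WT LPS replicate 2 left out (-0.72, adjusted p = 0.0954). The LPS difference was 0.69 ± 0.28 in KO cells (adjusted p = 0.0575), where the groups did not overlap, and -0.40 ± 0.25 in WT cells (adjusted p = 0.226), where they did. The first of these passed without KO LPS replicate 2 (0.90, adjusted p = 0.0270) or WT LPS replicate 2 (0.70, adjusted p = 0.0428). The counts behind these values were low, at 23 to 35 in KO and 56 to 61 in WT cells under LPS and 15 to 21 in KO and 65 to 97 in WT cells in medium.

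Il1rap encodes the coreceptor shared by the receptors for IL-1, IL-33 and the IL-36 cytokines. KO cells had 7.30, 6.56 and 7.23 CPM under LPS and 4.45, 4.82 and 4.68 CPM in medium, and WT cells had 7.22, 7.53 and 7.01 CPM under LPS and 3.88, 3.94 and 4.25 CPM in medium. LPS libraries lay above medium libraries in both lines, and Il1rap rose by 0.60 ± 0.12 in KO (log2, adjusted p = 0.00235) and by 0.85 ± 0.12 in WT cells (adjusted p = 0.000232). Il1r2, the decoy receptor, moved the other way. KO cells had 5.04, 4.71 and 4.66 CPM under LPS and 8.24, 7.18 and 8.13 CPM in medium, and WT cells had 3.42, 4.51 and 3.96 CPM under LPS and 6.89, 6.57 and 6.23 CPM in medium. Il1r2 fell by 0.71 on the log2 scale in KO cells (SE 0.14, adjusted p = 0.00209) and by 0.73 in WT cells (SE 0.14, adjusted p = 0.00202). With the pseudogene share of each library in the model, the LPS calls in KO cells were lost for Il1rap (0.52, adjusted p = 0.233) and Il1r2 (-0.70, adjusted p = 0.142), while those of Il1a, Il1b, Il1rn and Il18 passed. The share nearly follows treatment in KO cells, and both estimates stayed near those above. For Il1rap the KO against WT difference was -0.04 ± 0.12 under LPS (adjusted p = 0.872) and 0.21 ± 0.12 in medium (adjusted p = 0.222), and for Il1r2 it was 0.28 ± 0.14 under LPS (adjusted p = 0.202) and 0.26 ± 0.14 in medium (adjusted p = 0.194). The KO and WT libraries of Il1r2 did not overlap in either condition, with KO higher, but the test did not pass.

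Levels of different genes were compared per kb of annotated exon. Under LPS, Il1rn was the most abundant member in both lines, at 141 ± 30.8 CPM per kb in KO and 719.5 ± 89.2 in WT cells (SD, n = 3). Il1b came second in KO cells (73.7 ± 14.5 CPM per kb) and then Il1a (12.5 ± 2.47), whereas in WT cells Il1a came second (407 ± 90.2) and then Il1b (174 ± 41.0). Il18 followed in both lines, at 7.97 ± 1.15 CPM per kb in KO and 8.20 ± 0.726 in WT cells, and then Il1r2, at 2.52 ± 0.109 in KO and 2.08 ± 0.287 in WT cells. Il18bp and Il1rap came next and their libraries overlapped in both lines, and Il1r1 and Il33 were lowest. In medium the order in KO cells began with Il1r2 (4.11 ± 0.306 CPM per kb), Il18 (1.97 ± 0.189) and Il1rn (1.86 ± 0.453), the last 2 of which overlapped. In WT medium cells it began with Il1rn (33.9 ± 1.60 CPM per kb), Il1a (5.49 ± 0.201) and Il1r2 (3.44 ± 0.172), while Il18, Il1b and Il18bp followed with overlapping neighbours. Il1b stood at 0.242 ± 0.0568 CPM per kb in KO and 1.17 ± 0.226 in WT medium cells.

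The balance of antagonist and agonists within a library was read as the share of Il1rn in the sum of Il1rn, Il1a and Il1b, per kb. Under LPS Il1rn made up 61.1%, 68.8% and 55.4% of the sum in KO cells and 55.1%, 52.3% and 59.5% in WT cells. In medium it made up 87.0%, 82.9% and 85.7% in KO cells and 82.6%, 83.3% and 84.7% in WT cells. The share under LPS minus that in medium was -23.4 percentage points in KO cells (61.8% ± 6.73 and 85.2% ± 2.09, SD, n = 3 each) and -27.9 points in WT cells (55.6% ± 3.61 and 83.6% ± 1.09). With plain counts in place of counts per kb these differences were -12.1 points in KO and -15.5 points in WT cells. The level of the share depends on the exon lengths used. With plain counts it was 82.0%, 86.4% and 78.2% in KO and 77.7%, 75.65% and 80.6% in WT cells under LPS. A two-sided exact permutation test on the shares per kb gave p = 0.1 for LPS against medium in both lines, the smallest value that 3 libraries against 3 allow. The share differed between KO and WT cells by 6.16 points under LPS (exact permutation p = 0.2) and by 1.64 points in medium (exact permutation p = 0.3), and the libraries of the lines overlapped in both conditions.

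What stood beside Il1rn differed between the lines under LPS. Il1a made up 5.62%, 5.62% and 5.17% of the sum in KO cells and 30.8%, 34.1% and 28.5% in WT cells, and Il1b made up 33.2%, 25.6% and 39.4% in KO cells and 14.1%, 13.6% and 12.1% in WT cells. KO cells thus carried more Il1b than Il1a per kb, with an Il1a to Il1b ratio of 0.169, 0.220 and 0.131 under LPS, and WT cells more Il1a than Il1b, with ratios of 2.18, 2.50 and 2.36. In medium the ratio was 0.161, 0.568 and 0.276 in KO cells, from few counts, and 4.27, 4.29 and 5.79 in WT cells. The Il1rn to Il1b ratio was 1.84, 2.69 and 1.41 in KO and 3.91, 3.84 and 4.93 in WT cells under LPS, and 7.74, 7.60 and 7.68 in KO and 25.03, 26.5 and 37.7 in WT cells in medium. It was lower under LPS than in medium in each line and lower in KO than in WT cells in each condition, with no overlap. The Il1r2 to Il1r1 ratio, decoy to signalling receptor, was 22.1, 37.1 and 26.4 in KO and 11.8, 10.2 and 13.7 in WT cells under LPS, and 67.3, 63.8 and 89.2 in KO and 14.7, 15.6 and 13.8 in WT cells in medium. It was higher in KO than in WT cells without overlap. These ratios use the same counts as the tests above and are given as descriptions.

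**Figure D3:**
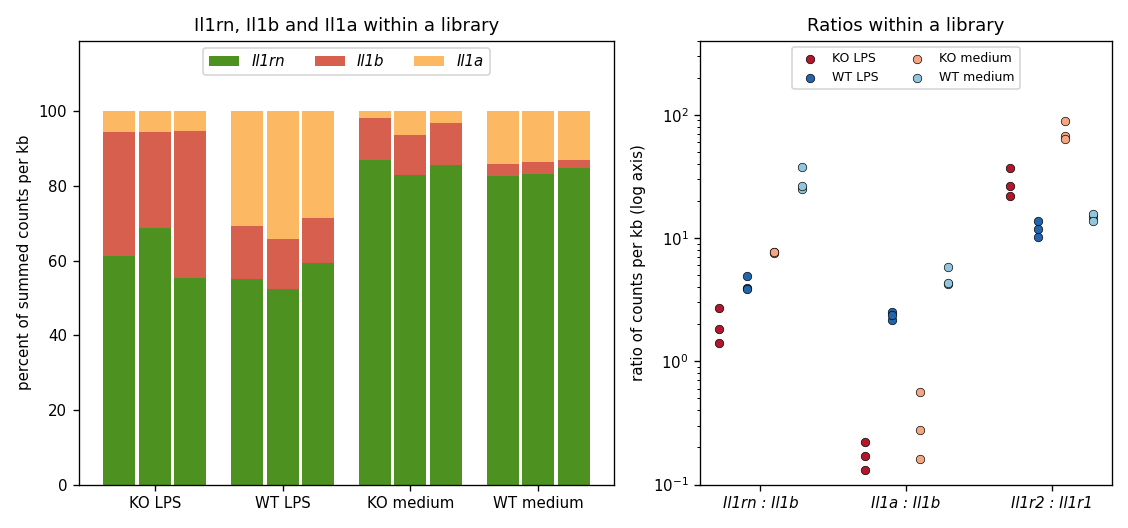
Left, the percent of Il1rn, Il1b and Il1a in their summed counts per kb of exon, 1 bar per library in replicate order. Right, ratios of counts per kb on a log axis, 1 point per library (n = 3 per group). Il1a takes 28.5% to 34.1% of the sum in WT cells under LPS and 5.17% to 5.62% in KO cells, and the Il1a to Il1b ratio lies below 1 in all KO libraries and above 1 in all WT libraries.

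Of 12 other IL-1 family ligands and receptors, 9 were tested. With LPS, 6 rose and 2 fell in KO cells and 3 rose and 1 fell in WT cells, and in KO against WT cells 3 were lower and 0 higher in each condition. Over all genes 25.3% were higher and 26.8% lower with LPS in KO cells, and 16.3% each way in WT cells. In KO against WT cells 12.7% of all genes were lower and 7.87% higher under LPS, and 12.3% lower and 6.88% higher in medium. The 2 of 9 that fell with LPS in KO cells stand near the share of all genes. Il36g, an IL-36 agonist and the most abundant of this list, showed the same order of the 4 group means as Il1a. KO cells had 4.19, 5.66 and 3.89 CPM under LPS and 0.136, 0.1105 and 0.0811 CPM in medium, and WT cells had 67.8, 70.7 and 59.2 CPM under LPS and 1.52, 1.45 and 2.37 CPM in medium. The lines did not overlap in either condition, and LPS libraries lay above medium libraries. LPS raised it by 5.36 ± 0.28 (log2) in KO and 5.20 ± 0.22 in WT cells (adjusted p = 1.22e-07 and 2.81e-08). It was lower in KO than in WT cells, by -3.84 ± 0.21 under LPS and -4.00 ± 0.29 in medium (adjusted p = 2.52e-07 and 3.27e-06). Il36a, another IL-36 agonist, had 8, 18 and 4 counts in KO and 248, 195 and 203 in WT cells under LPS, a log2 difference of -4.31 ± 0.48 (adjusted p = 5.83e-05). Its rise with LPS was called in WT cells (5.60 ± 0.53, adjusted p = 1.20e-05) and in KO cells (2.49 ± 0.73, adjusted p = 0.0129), where it was lost without KO LPS replicate 2 (1.90, adjusted p = 0.0607) and with the pseudogene share in the model (2.83, adjusted p = 0.263). Il36b rose with LPS in KO cells (2.48 ± 0.46, adjusted p = 0.00146) and was lower in KO than in WT cells in medium (-1.64 ± 0.48, adjusted p = 0.0333). That second call rested on 3 to 6 counts in KO and 4 to 22 in WT cells, and was lost without KO medium replicate 2 or 3 or WT medium replicate 1 or 3 (-1.54 to -1.35, adjusted p = 0.0933 to 0.131). With the pseudogene share in the model neither Il36b call held, at 0.91 (adjusted p = 0.531) for LPS in KO cells and -0.53 (adjusted p = 0.670) for KO against WT in medium. Il1rl1, the IL-33 receptor ST2, was lower in KO than in WT cells under LPS (-1.48 ± 0.18, adjusted p = 0.000109) and in medium (-1.28 ± 0.18, adjusted p = 0.000406). Sigirr, an inhibitory receptor of the family, fell with LPS in KO (-1.42 ± 0.20, adjusted p = 0.000237) and in WT cells (-1.34 ± 0.19, adjusted p = 0.000316).

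Genes for processing and release of the cytokines were counted next, 16 of 16 tested. With LPS, 9 rose and 4 fell in KO cells and 8 rose and 2 fell in WT cells, and the falls stand near the shares of all genes that fell (26.8% in KO and 16.3% in WT cells, with 25.3% and 16.3% rising). Nlrp3, the inflammasome sensor and the most abundant of the list in CPM, had 375 ± 38.9 CPM in KO and 369.5 ± 36.5 CPM in WT cells under LPS, and 30.2 ± 5.61 CPM in KO and 29.8 ± 2.83 CPM in WT cells in medium (SD, n = 3). It rose by 3.64 ± 0.15 in KO and 3.63 ± 0.15 in WT cells (log2, adjusted p = 2.34e-08 and 2.53e-08). Casp4, the sensor of intracellular LPS, rose by 3.36 ± 0.13 in KO and 3.29 ± 0.13 in WT cells (adjusted p = 1.12e-08 and 1.39e-08). Nlrp1b fell with LPS in KO (-1.38 ± 0.24, adjusted p = 0.000970) and in WT cells (-1.34 ± 0.23, adjusted p = 0.00124). Mefv, which encodes pyrin, rose with LPS in KO (2.23 ± 0.30, adjusted p = 0.000174) and in WT cells (1.15 ± 0.35, adjusted p = 0.0264). With the pseudogene share in the model the KO calls did not hold for Nlrp1b (-0.95, adjusted p = 0.201) or Mefv (2.00, adjusted p = 0.160). The WT call of Mefv did not hold in 9 alternatives, 5 of them with 1 library left out (WT LPS replicate 1 or 2, WT medium replicate 1 or 2, or KO medium replicate 3, adjusted p = 0.0506 to 0.138). In KO against WT cells, 8 of the 16 were lower and 2 higher under LPS, where 12.7% of all genes were lower and 7.87% higher. In medium 6 were lower and 0 higher, where 12.3% of all genes were lower and 6.88% higher. The inflammasome gene Nlrc4 was lower by -2.22 ± 0.13 under LPS and -2.08 ± 0.13 in medium (adjusted p = 5.31e-07 and 1.12e-06). Ninj1, which mediates membrane rupture, was lower by -1.11 ± 0.16 under LPS and -0.86 ± 0.15 in medium (adjusted p = 0.000338 and 0.00251), and the calpain gene Capn2 by -1.34 ± 0.26 in medium (adjusted p = 0.00463). Mefv was higher in KO than in WT cells under LPS (1.69 ± 0.28, adjusted p = 0.00107), on 41, 32 and 37 counts in KO and 14, 12 and 12 in WT libraries. In the interaction 1 of the 16 was lower and 0 higher, where 0.908% of all genes were lower and 0.693% higher. This gene was Casp8, whose protease can also cleave pro-IL-1β (-0.81 ± 0.11, adjusted p = 0.00481). It had 40.1 ± 1.91 CPM in KO and 61.8 ± 0.630 CPM in WT cells under LPS, and 38.7 ± 2.37 CPM in KO and 33.9 ± 2.92 CPM in WT cells in medium.

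In the signalling path below IL1R1, 20 of 20 genes were tested. With LPS, 12 rose and 1 fell in KO cells, where 25.3% of all genes rose and 26.8% fell. In WT cells 13 rose and 2 fell, where 16.3% of all genes rose and 16.3% fell, so the 2 stand near that share. Peli1, a ubiquitin ligase and the most abundant in CPM, rose by 2.97 ± 0.18 in KO and 3.33 ± 0.19 in WT cells (adjusted p = 4.86e-07 and 2.25e-07), and the kinase gene Irak2 by 2.92 ± 0.19 in KO and 2.94 ± 0.19 in WT cells (adjusted p = 6.82e-07 and 6.64e-07). Irak3, which encodes IRAK-M, a brake on this path, separated the lines by a larger factor than the other genes of the list. KO cells had 0.782, 0.919 and 0.589 CPM under LPS and 0.311, 0.177 and 0.264 CPM in medium, and WT cells had 27.4, 24.7 and 21.7 CPM under LPS and 6.47, 6.10 and 5.31 CPM in medium. All KO libraries lay below all WT libraries. Irak3 was 31.97-fold lower in KO than in WT cells under LPS (log2 -5.00 ± 0.22, adjusted p = 5.53e-08) and 23.4-fold lower in medium (-4.55 ± 0.23, adjusted p = 2.29e-07), and rose with LPS in KO (1.60 ± 0.23, adjusted p = 0.000334) and in WT cells (2.05 ± 0.19, adjusted p = 8.69e-06). In KO against WT cells, 6 genes of the path were lower and 1 higher under LPS, where 12.7% of all genes were lower and 7.87% higher. In medium 4 were lower and 0 higher, where 12.3% of all genes were lower and 6.88% higher. The 1 of 20 that was higher stands near the share of all genes. Traf6, the adaptor ligase, was lower by -1.10 ± 0.10 under LPS and -0.88 ± 0.10 in medium (adjusted p = 1.13e-05 and 8.44e-05), Myd88 by -0.76 ± 0.12 under LPS (adjusted p = 0.000799) and Tollip by -0.59 ± 0.10 in medium (adjusted p = 0.00128). No gene of the path was called in the interaction, where 0.693% of all genes were higher and 0.908% lower. That count stands near those shares.

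**Figure D4:**
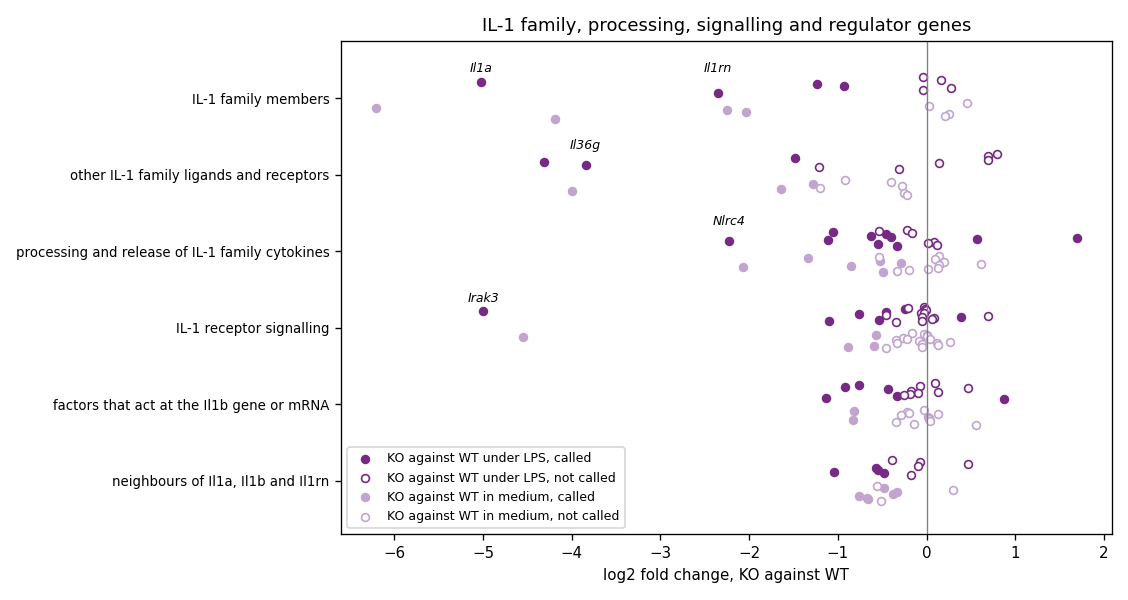
Log2 fold change of KO against WT cells for the tested genes of 6 lists, under LPS in the upper row of each list and in medium in the lower row. Filled points passed an adjusted p of 0.05 in edgeR. The members Il1a and Il1rn, and Il36g, Nlrc4 and Irak3, lie to the left of -2 in both conditions. Il36a does so under LPS alone, and Il1b and Il1r1 in medium alone. Most genes of the signalling and regulator lists lie between -1 and 1.

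Of 14 factors that act at the Il1b gene or its mRNA, 11 rose with LPS in KO and 12 in WT cells, and 0 fell. Over all genes 25.3% rose and 26.8% fell in KO cells, and 16.3% rose and 16.3% fell in WT cells. Nfkbiz, which encodes the NF-kB cofactor IκBζ, rose by 4.89 ± 0.12 in KO and 5.08 ± 0.12 in WT cells (log2, adjusted p = 3.80e-10 and 3.41e-10). The genes of the mRNA-degrading proteins Zc3h12a and Zfp36 rose by 4.29 ± 0.12 and 3.08 ± 0.17 in KO cells and by 4.28 ± 0.12 and 4.06 ± 0.17 in WT cells (adjusted p from 1.64e-09 to 1.70e-07). In KO against WT cells 5 were lower and 1 higher under LPS, where 12.7% of all genes were lower and 7.87% higher. In medium 2 were lower and 0 higher, where 12.3% of all genes were lower and 6.88% higher. The 1 higher under LPS and the 2 lower in medium stand near those shares. Under LPS, Zfp36 was lower (-1.13 ± 0.15, adjusted p = 0.000290), as was the interferon regulatory factor gene Irf4 (-0.92 ± 0.16, adjusted p = 0.00124). Zfp36l1 was higher (0.87 ± 0.22, adjusted p = 0.0165), a call that did not hold with KO LPS replicate 1 or 3 left out (adjusted p = 0.0516 and 0.0644) or with WT LPS replicate 2 left out (0.0699). Spi1, which encodes PU.1, was lower in medium (-0.83 ± 0.11, adjusted p = 0.000292) and had a difference of -0.19 ± 0.11 under LPS that did not pass (adjusted p = 0.280). Cebpb was lower in both conditions, by -0.77 ± 0.12 under LPS (adjusted p = 0.000602) and -0.82 ± 0.12 in medium (adjusted p = 0.000521).

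Genes of other families that lie near Il1a, Il1b and Il1rn on chromosome 2 were counted last, without the IL-36 genes beside Il1rn given above. Psd4 lies beside Il1rn, and all other tested neighbours lie on the side of Il1a away from Il1b, within 10 protein-coding genes. Genes on the far side of Il1b, such as Sirpa and Stk35, were not in the list, so the counts do not cover the surroundings of all these genes. Of 9 tested neighbours, 4 were lower and 0 higher in KO than in WT cells under LPS, and 6 were lower and 0 higher in medium. Over all genes 12.7% were lower and 7.87% higher under LPS, and 12.3% were lower and 6.88% higher in medium. Under LPS, Tmem87b was lower by -1.04 ± 0.11 (adjusted p = 3.92e-05), Psd4, the neighbour of Il1rn, by -0.57 ± 0.07 (adjusted p = 0.000105) and Slc20a1 by -0.54 ± 0.14 (adjusted p = 0.0134), the last of which did not hold with KO LPS replicate 1 or 3 left out (adjusted p = 0.0581 and 0.0620). In medium, Slc20a1 was lower by -0.76 ± 0.14 (adjusted p = 0.00235), Tmem87b by -0.67 ± 0.11 (adjusted p = 0.00125) and Ttl by -0.66 ± 0.11 (adjusted p = 0.00115). With LPS, 5 neighbours rose in KO and 3 in WT cells, and 0 fell. Over all genes 25.3% rose and 26.8% fell in KO cells, and 16.3% rose and 16.3% fell in WT cells. Psd4 rose by 0.57 ± 0.07 in KO and 0.77 ± 0.07 in WT cells (adjusted p = 7.41e-05 and 7.33e-06), Slc20a1 by 0.91 ± 0.14 in KO and 0.70 ± 0.14 in WT cells (adjusted p = 0.000414 and 0.00252), and Ckap2l, next to Il1a, by 0.85 ± 0.09 in KO and 0.45 ± 0.09 in WT cells (adjusted p = 2.82e-05 and 0.00281). With the pseudogene share in the model, the rises in KO cells did not hold for Psd4 (0.43, adjusted p = 0.111) or Slc20a1 (0.82, adjusted p = 0.0761), and with library size alone, without TMM factors, those in WT cells did not hold for Slc20a1 (0.36, adjusted p = 0.0676) or Ckap2l (0.11, adjusted p = 0.313).

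The protein-coding genes whose pattern over the 12 libraries was most like each member were ranked by Pearson's r on log2 CPM, as a description, since these libraries share the same 4 groups. They were Oas2 (r = 0.995), Eif2s2 and Katnbl1 for Il1a, Ncoa5 (0.997), Parp14 and Osgin2 for Il1b, Cnot7 (0.994), Uba6 and Psme2 for Il18, and Tank (0.996), Rtp4 and Gsap for Il1rn. Among the receptors they were Pbx4 (0.969), Kcnk2 and Eml1 for Il1r1, AW011738 (0.988), Agrn and Lta for Il1rap, and Tmem268 (0.978), Pik3ip1 and Zfp273 for Il1r2. Il18bp, the member with no called difference, had a lower best match, St6galnac2 (r = 0.888), followed by Spag1 and 9930104L06Rik.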

How the data were processed

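RNA-seq was deposited as whole-number read counts per Ensembl gene for 12 libraries (ribosomal RNA depleted, stranded kit, per the labels' protocols). Per the submitters' processing notes the authors used FastQC 0.11.9, Trimmomatic 0.39, STAR 2.7.9a, featureCounts and DESeq2 1.32.0 on GRCm39. No source used here gives the annotation release, strand setting or handling of multi-mapping reads. Symbols, exon lengths and overlaps came from GENCODE on GRCm38, with 52135 of 55416 identifiers matched, and no gene coordinates were carried between builds.

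Genes were kept with filterByExpr (minimum count 10), which left 26420 genes, and tested with edgeR 4.0.16 in R 4.3.3: TMM scaling, glmQLFit with 4 group means over 12 libraries, glmQLFTest, and Benjamini-Hochberg adjustment over all tested genes. The biological coefficient of variation was 0.235. CPM used the scaled library size. The fits were also run on simulated counts with set changes in KO LPS libraries alone and the same spread for all genes. Such counts are simpler than these data, so that run checks the code and not the calls made here. Same-numbered replicates were checked for pairing by the correlation of their deviations from group means, which ran from -0.37 to 0.39, so the numbers were not taken to pair samples. Replicates differed by more than sampling noise (chi-square per degree of freedom 19.1 to 154.5). Named genes were the members, Mok, the 3 called genes with the largest change per list and comparison, the most abundant gene of each list, and the 3 genes most like each member (mean log2 CPM of at least 0, prior count 2). Itgam, Csf1r, Adgre1, Tmem119 and Mbp, and Sigirr, Nlrp1b, Mefv, Cebpb and Spi1 in the comparison where the rule did not name them, were added after their values were seen. Members, lists and comparisons were chosen with earlier results of these data known. Alternatives changed scaling, filter, tool, gene class, model terms and libraries.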

Additional observations from a re-analysis of the deposited data

Results flagged for a closer look

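The LPS effect on Il1rn differed between the lines by a test of the difference itself. It was 1.84 ± 0.27 log2 units greater in KO than in WT cells (edgeR interaction, adjusted p = 0.00719), with all 3 KO libraries under LPS at 586 to 889 CPM and all 3 in medium at 8.28 to 13.1 CPM, against 3505 to 4492 CPM under LPS and 178 to 194 CPM in medium in WT cells. Over the 20 alternatives of this test the value ran from 1.71 to 2.06 and the adjusted p from 7.83e-08 to 0.0293.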

How the results depend on the processing

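Over 21 alternatives, or 20 for the interaction, 803 of 832 member fold changes kept their direction and their side of the threshold, 5 no longer passed, 4 newly passed and 20 changed sign. The sign changes were of differences near 0 that passed in neither fit. For Il18bp these were KO against WT in medium with RLE scaling (-0.0028) and DESeq2 (-0.0046) and the interaction with the pseudogene share in the model (-0.0101). For Il1r2 they were the interaction with no filter (-0.0092) and with protein-coding genes only (-0.0355), and for Il18 (0.0296) and Il1rap (0.0257) KO against WT under LPS with library size alone. Leaving out 1 library changed the sign for Il18bp in LPS against medium in KO cells (-0.39 to 0.0607), KO against WT in medium (-0.12 to 0.13) and under LPS (-0.11 to 0.37) and the interaction (-0.13 to 0.34), for Il18 (-0.13 to 0.0698) and Il1rap (-0.0760 to 0.0001) in KO against WT under LPS, and for Il1r2 in the interaction (-0.0784 to 0.12). With the pseudogene share in the model 0 members fell with LPS in KO cells. With library size alone 2 fell in WT cells, Il1r1 being the second (-0.73, adjusted p = 0.0389); that scaling moved the median of all genes to -0.29 and -0.40 for LPS in KO and WT cells. RLE scaling let Il1r1 pass for LPS in KO cells (0.75, adjusted p = 0.0449). With plain counts in place of counts per kb, the Il1rn share under LPS minus that in medium was -12.1 points in KO and -15.5 points in WT cells. The cause of these changes was not tested.

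The replicate block changed no member count (for LPS in KO cells again 5 higher and 1 lower); 5 of 6 libraries there correlated best with their own number, 4 of 6 for KO against WT under LPS and 2 of 6 in each of the other comparisons. Over all genes the counts moved more. For LPS in KO cells 6679 were higher (1334 with the pseudogene share to 7132 with the replicate block) and 7070 lower (659 with that share to 10422 with library size alone). For LPS in WT cells 4303 were higher (2104 with library size alone to 4849) and 4297 lower (2094 without WT LPS replicate 1 to 9985 with library size alone). For KO against WT under LPS 2080 were higher (1382 to 2922). In medium 1818 were higher (559 with the pseudogene share to 6110 without WT medium replicate 2) and 3256 lower (1793 to 5155, under the same alternatives). The interaction held 183 higher (69 without WT LPS replicate 1 to 1606 without WT medium replicate 2) and 240 lower (116 without KO medium replicate 3 to 2391 without WT medium replicate 2). List counts in LPS against medium in KO cells were lowest with the pseudogene share: 1 of the other IL-1 family genes rose, against 6, 3 of the processing genes, against 9, 7 of the signalling genes, against 12, and 1 neighbour, against 5. That share did not overlap between LPS and medium libraries of KO cells, so these lower counts cannot tell it from LPS. DESeq2 called 8 signalling genes lower in KO against WT in medium, against 4. The count over all genes with DESeq2 is not given here, so this rise cannot be read as particular to that list. Depth limits Il33, Il1r1, Il1a and Il1b in KO medium libraries, the last at 30, 17 and 21 counts.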
